A study of Mus musculus with 12 samples.

Results

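The let-7 family was followed on miRNA arrays of mouse hearts. The 9 members followed, mmu-let-7a-5p, mmu-let-7b-5p, mmu-let-7c-5p, mmu-let-7d-5p, mmu-let-7e-5p, mmu-let-7f-5p, mmu-let-7g-5p, mmu-let-7i-5p and mmu-miR-98-5p, were taken by name from the 1881 miRNAs probed, whatever their level. mmu-let-7j and mmu-let-7k, also on the array, are not among the 9 and are given further below. Of the 9, 7 were detected on all 12 arrays, as were 128 of the 1881 miRNAs, and 2 (mmu-let-7e-5p and mmu-miR-98-5p) were not.

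The 12 arrays came from the hearts of 12 male C57BL6/J mice aged 5 months, 3 mice in each of 4 groups. Control mice (C) received neither drug, and diabetic mice (D) received streptozotocin, which is toxic to the insulin-producing cells of the pancreas, at 50 mg/kg/day for 5 days. Each arm was also studied with pargyline, an inhibitor of monoamine oxidase (MAO), at 50 mg/kg/day for 12 weeks (C + P and D + P). A mouse counted as diabetic at a blood glucose of 17 mM or above, so diabetes here followed loss of pancreatic cells by a toxin, and the RNA came from heart tissue, not from sorted cells. The labels give the tissue as heart muscle, but their extraction text speaks of RNA from macrophages; heart muscle miRNAs were detected on every array, as given below, and the samples are described here as heart. The arrays were hybridised on 2 slides. Slide 1 held C and D and slide 2 held C + P and D + P, which means that pargyline cannot be told apart from slide, while D against C and D + P against C + P lie within a slide. On both slides the non-diabetic hearts were in array row 1 and the diabetic hearts in row 2, which cannot be told apart either. In tissue RNA, fewer cells of a type and less RNA per cell cannot be told apart.

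let-7 was found in the nematode Caenorhabditis elegans as a gene that times development. Its hairpin precursors are cut by Drosha and Dicer, the RNA-binding proteins LIN28A and LIN28B bind the precursors and block this step, and the mature strand guides Argonaute to messenger RNAs that pair with its seed. In mammals the mature let-7 miRNAs build up as tissues differentiate, heart muscle among them, and known targets include Ras and Hmga2 transcripts and genes of the insulin and IGF pathway.

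The mature sequences are shown because members that differ by 1 base are read by separate probes, and because base content returns beside the results. They are those of RefSeq for GRCm38.p6, which held all 9, written 5′ to 3′ with the seed (bases 2 to 8) in capitals.
mmu-let-7a-5p: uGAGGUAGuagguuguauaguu
mmu-let-7d-5p: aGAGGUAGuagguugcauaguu
mmu-let-7f-5p: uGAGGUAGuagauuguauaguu
mmu-let-7g-5p: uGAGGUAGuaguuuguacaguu
mmu-let-7b-5p: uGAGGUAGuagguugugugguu
mmu-let-7c-5p: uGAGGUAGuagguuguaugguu
mmu-let-7i-5p: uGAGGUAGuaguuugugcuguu
mmu-let-7e-5p: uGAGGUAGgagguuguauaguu
mmu-miR-98-5p: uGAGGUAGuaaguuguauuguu
All 9 share the seed GAGGUAG and are 22 bases long. Against mmu-let-7a-5p, with positions counted from 1 at the 5′ end, mmu-let-7c-5p carries A19G, mmu-let-7f-5p carries G12A and mmu-let-7e-5p carries U9G. mmu-let-7b-5p carries A17G and A19G, mmu-let-7d-5p carries U1A and U16C, mmu-let-7g-5p carries G12U and U18C, and mmu-miR-98-5p carries G11A and A19U. mmu-let-7i-5p is the farthest from mmu-let-7a-5p, with the 4 substitutions G12U, A17G, U18C and A19U.

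The members come from 12 hairpins at separate places of the genome. Mirlet7a-1, Mirlet7f-1 and Mirlet7d lie on the minus strand within 2261 bases of chromosome 13, at chr13:48538179-48538272, chr13:48537829-48537917 and chr13:48536012-48536114 (GRCm38.p6), outside any other gene of the annotation. mmu-let-7a-5p is also cut from Mirlet7a-2, inside the lncRNA gene Mir100hg on chromosome 9, and mmu-let-7f-5p also from Mirlet7f-2, which neighbours Mir98 inside Huwe1 on chromosome X. Mirlet7b and Mirlet7c-2 lie together inside the lncRNA gene Lncppara on chromosome 15, and Mirlet7c-1 lies on chromosome 16 near Mir99a and Mir125b-2. Mirlet7g lies inside Wdr82 on chromosome 9, Mirlet7e inside Spaca6 on chromosome 17 near Mir99b and Mir125a, and Mirlet7i on chromosome 10 outside any other gene. A mature miRNA cut from more than 1 hairpin gives a single signal, so the hairpins behind mmu-let-7a-5p, mmu-let-7c-5p and mmu-let-7f-5p were not separated.

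The arrays differed in depth of signal before normalization. Between 144 and 253 miRNAs were detected per array, with the lowest counts on C arrays (144 to 163). The mean log2 signal of 10 control features, rows of the array that are not mouse miRNAs, was 10.29 to 10.56 on C arrays, 11.03 to 11.48 on C + P arrays, 11.07 to 11.21 on D arrays, and 10.29, 10.86 and 11.10 on D + P replicates 1, 2 and 3. Of the heart muscle miRNAs listed as markers, 4 of 5 were detected on every array, mmu-miR-208b-3p was detected on none, and the markers of liver and brain were detected on none. The summed scanner signal of the heart muscle list was 1879 to 2365 on C, 6198 to 11606 on C + P, 4680 to 7634 on D and 1690 to 6270 on D + P arrays. That of the 6 leukocyte markers was 16.4 to 32.7, 94.7 to 175.1, 44.5 to 65.8 and 14.1 to 67.6 in the same order, with 3 of 6 detected on every array. The 4 fibroblast markers, 3 of them detected on every array, summed to 90.5 to 110.5, 238.0 to 428.7, 168.7 to 231.7 and 73.7 to 218.0. The summed signal of all detected miRNAs was 27107 to 35028, 57895 to 89040, 48104 to 61254 and 39661 to 58631 in the same order. After normalization, in the limma fit over 128 miRNAs, the median log2 difference of the 3 leukocyte markers tested was 0.58 in D against C (1 rose), 0.89 in C + P against C (2 rose) and -1.09 in D + P against D (3 fell). For the 3 fibroblast markers tested it was 0.65 (2 rose), 0.51 (2 rose) and -0.43 (2 fell), and for the 4 heart muscle markers tested 0.05 (1 rose and 1 fell), 0.15 (1 rose) and -0.37 (2 fell). In D + P against C + P 3 leukocyte, 2 fibroblast and 2 heart muscle markers fell. Markers within a list differed. In D against C, mmu-miR-223-3p of the leukocyte list passed (1.03), while mmu-miR-142a-3p (0.58) and mmu-miR-146a-5p (-0.04) did not. mmu-miR-21a-5p of the fibroblast list did not pass there (0.10). The heart muscle marker mmu-miR-1a-3p rose in D (1.32) and C + P (1.48) relative to C. It fell in D + P relative to D (-0.71) and to C + P (-0.87), while mmu-miR-208a-3p was lower in D than in C (-0.78). For the 3 red cell markers tested the medians were -0.21 (1 fell), -0.49 (1 fell) and 0.12 (1 rose) in the order above, and 1 rose in D + P against C + P. For the 2 smooth muscle markers tested they were 0.42 (1 rose), 0.45 (1 rose) and 0.14 (no call). The 1 endothelial marker tested passed in none of the 4 comparisons. Some markers in each of the leukocyte, fibroblast and heart muscle lists thus moved with let-7 members described next, and others did not. Their part in the members' values was not tested.

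mmu-let-7f-5p, of the chromosome 13 cluster, was lower in C than in D and C + P. Its scanner signal, before any normalization, was 154, 135 and 175 on C replicates 1 to 3, 467, 651 and 1024 on C + P, 805, 707 and 361 on D, and 94.2, 316 and 536 on D + P. All C arrays were below every D and every C + P array, and the D + P arrays ran from below C to within the D range. After cyclic loess of the 128 miRNAs, the normalized log2 signals were 7.87, 7.94 and 8.06 on C, 8.66, 8.98 and 8.95 on C + P, 9.17, 9.16 and 8.52 on D, and 7.28, 8.16 and 8.68 on D + P.

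mmu-let-7d-5p was likewise lower in C than in D and C + P. Its scanner signal was 82.1, 65.2 and 92.0 on C, 175.7, 257 and 403 on C + P, 353, 292 and 168 on D, and 52.8, 152 and 218 on D + P. Its normalized log2 signals were 6.90, 6.77 and 7.04 on C, 7.33, 7.68 and 7.65 on C + P, 8.06, 7.97 and 7.44 on D, and 6.32, 6.99 and 7.36 on D + P. Here too C lay wholly below D and C + P, and D + P wholly below D.

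mmu-let-7a-5p gave 192 (replicate 1), 174 and 242 on C, 483, 634 and 966 on C + P, 780, 713 and 410 on D, and 116, 345 and 537 on D + P as scanner signals. The normalized log2 signals were 8.20, 8.33 and 8.55 on C, 8.70, 8.93 and 8.85 on C + P, 9.11, 9.15 and 8.70 on D, and 7.61, 8.30 and 8.68 on D + P. The C arrays again lay below all C + P and D arrays, with a narrower gap.

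mmu-let-7g-5p, whose hairpin is on another chromosome, followed the cluster closely. Its normalized log2 signals were 6.66, 6.77 and 6.87 on C, 7.23, 7.49 and 7.54 on C + P, 7.72, 7.67 and 7.16 on D, and 6.25, 6.77 and 7.11 on D + P. The scanner signals behind them ran from 51.4 on D + P replicate 1 to 374 on C + P replicate 3.

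mmu-let-7i-5p was nearly level. Its normalized log2 signals were 7.42, 7.55 and 7.49 on C, 7.11, 7.33 and 7.29 on C + P, 7.30, 7.47 and 7.32 on D, and 7.35, 7.25 and 7.18 on D + P. The D arrays overlapped those of C and of D + P, while the C + P and D + P arrays lay just below the C arrays. Its scanner signals ran from 107 on D + P replicate 1 to 313 on C + P replicate 3, a narrower span than that of mmu-let-7f-5p (94.2 to 1024).

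mmu-let-7b-5p and mmu-let-7c-5p stood between these patterns in their differences of D from C and of D + P from D. mmu-let-7b-5p had normalized log2 signals of 8.13, 8.11 and 8.50 on C, 7.95, 8.07 and 7.91 on C + P, 8.29, 8.18 and 8.14 on D, and 7.51, 7.79 and 7.93 on D + P. mmu-let-7c-5p had 8.36, 8.41 and 8.73 on C, 8.38, 8.62 and 8.46 on C + P, 8.86, 8.72 and 8.51 on D, and 7.65, 8.18 and 8.39 on D + P. In both, C and D overlapped and every D + P array was below every D array. The C + P arrays of mmu-let-7b-5p lay just below its C arrays, as those of mmu-let-7i-5p did, while those of mmu-let-7c-5p overlapped C. The scanner's own relative error on the signals of the 7 members was 7.13% to 7.94%.

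mmu-let-7e-5p was detected on 11 arrays. Its scanner signal was 4.86 and 8.93 on C replicates 1 and 3 and below detection on C replicate 2, 22.05, 27.4 and 40.9 on C + P, 37.7, 31.6 and 20.7 on D, and 3.17, 14.0 and 24.5 on D + P. mmu-miR-98-5p was detected on 8 arrays, on none of the C arrays and not on D + P replicate 1. Where detected, its scanner signal was 14.1, 19.5 and 34.8 on C + P, 15.97, 17.1 and 5.35 on D, and 10.8 and 16.2 on D + P replicates 2 and 3. These 2 members were fitted among 209 miRNAs that every mouse of 1 group or more had above detection, and a missing value there took the array's lowest detected signal. mmu-miR-98-5p met this filter only through C + P and D, and mmu-let-7e-5p through every group but C. Their differences from C and their interaction are thus not independent of the filter. For mmu-miR-98-5p this also holds for the differences of D + P from D and from C + P.

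**Figure D1:**
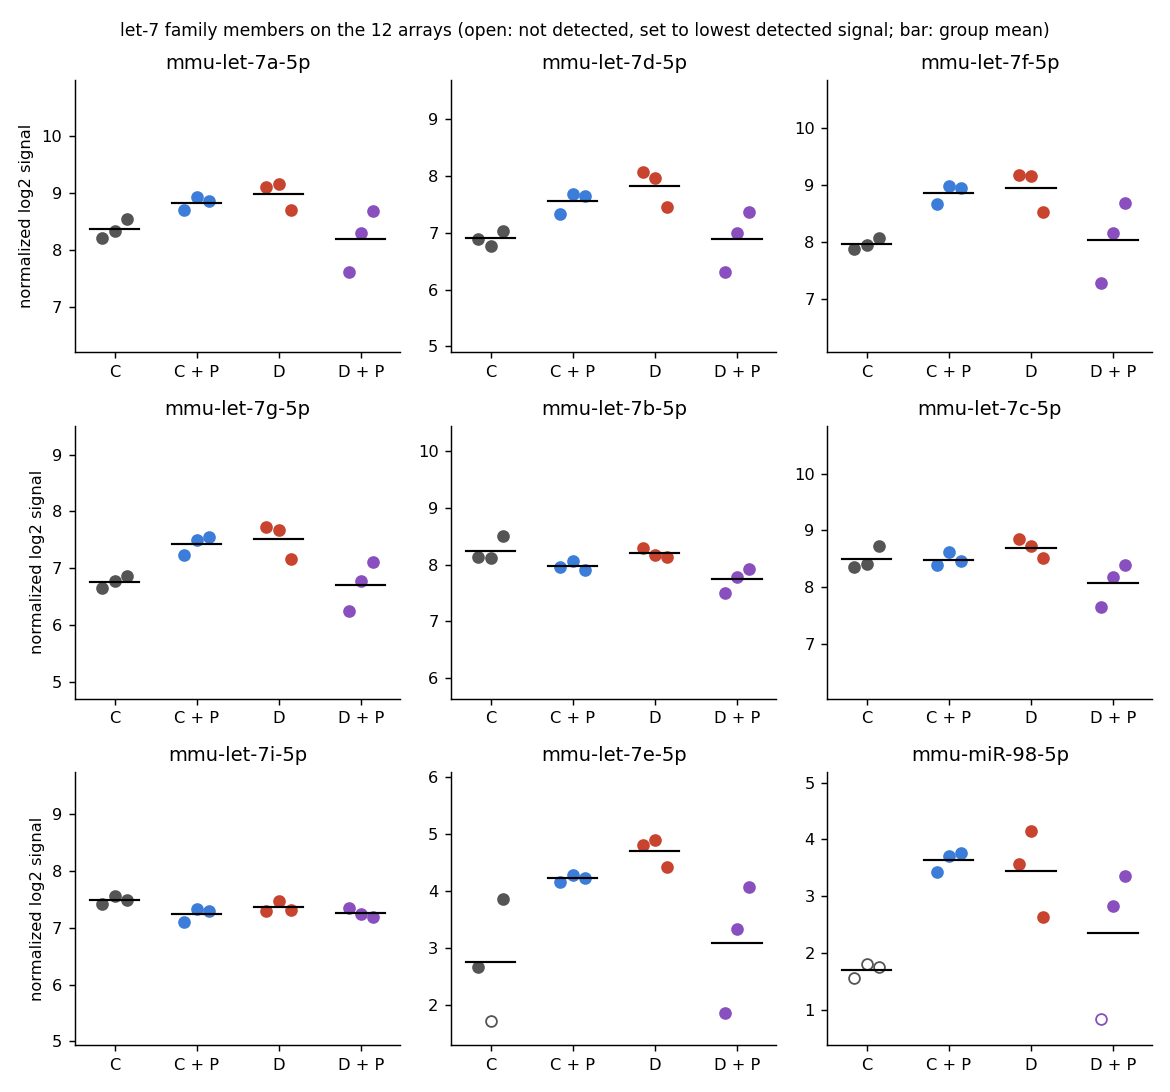
Normalized log2 signal (y axis) of the 9 members on each of the 12 arrays, by group (x axis), with points in the order of replicates 1 to 3 and a bar at the group mean; all panels span the same range of log2 units. mmu-let-7a, d, f and g-5p sit higher in C + P and D than in C and spread widely in D + P, mmu-let-7i-5p stays within 7.11 to 7.55, and open points of mmu-let-7e-5p and mmu-miR-98-5p are undetected values set to the lowest detected signal of that array.

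In D against C, which asks whether diabetic hearts differ without pargyline, 4 of the 7 members detected on all arrays rose: mmu-let-7f-5p by a log2 difference of 0.99 (SE 0.29, limma adjusted p = 0.0165), mmu-let-7d-5p by 0.93 (SE 0.24, limma adjusted p = 0.0106), mmu-let-7g-5p by 0.75 (SE 0.21, limma adjusted p = 0.0142) and mmu-let-7a-5p by 0.63 (SE 0.23, limma adjusted p = 0.0418). On the linear scale these were 1.99-, 1.90-, 1.69- and 1.54-fold. None fell, and mmu-let-7c-5p (0.20, SE 0.19), mmu-let-7b-5p (-0.05, SE 0.15) and mmu-let-7i-5p (-0.12, SE 0.12) did not pass. Over all 128 miRNAs tested, 24.2% passed in the higher direction, and the arrays of D lay wholly above those of C for 35.2%, against 4 of the 7 members. The median log2 difference was 0.63 over the 7 members, 0.02 over the 128 miRNAs, 0.93 over mmu-let-7a, d and f-5p, and -0.05 over mmu-let-7b, c and i-5p. The count was 2 with quantile normalization or the authors' normalized values and 0 without the filter on detection (4 at an unadjusted p under 0.05). It went from 4 to 1 without D replicate 1 and to 2 without D replicate 2 or without C replicate 2.

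mmu-let-7e-5p and mmu-miR-98-5p also rose in D against C. mmu-let-7e-5p was higher by 1.96 on the log2 scale (SE 0.56, limma adjusted p = 0.0201). mmu-miR-98-5p, with all C arrays below detection, was at least 3.35-fold higher (limma adjusted p = 0.0278), a bound set by the lowest detected signal of each C array and holding under this normalization. Of the 209 miRNAs in that fit 24.4% passed in the higher direction. Both calls were lost without C replicate 2, D replicate 1 or D replicate 2, 1 of the 2 was lost without C replicate 1 or 3, and neither passed without the filter on detection.

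C + P against C compares hearts without diabetes with and without pargyline, and equally slide 2 with slide 1. In it mmu-let-7f-5p rose by 0.90 (SE 0.29, limma adjusted p = 0.0355) and mmu-let-7g-5p by 0.66 (SE 0.21, limma adjusted p = 0.0363). mmu-let-7d-5p (0.65, SE 0.24, limma adjusted p = 0.0540) and mmu-let-7a-5p (0.47, SE 0.23, limma adjusted p = 0.124) had values of the same sign short of the threshold. mmu-let-7b-5p (-0.27, SE 0.15), mmu-let-7i-5p (-0.25, SE 0.12) and mmu-let-7c-5p (-0.01, SE 0.19) did not pass. Of the 128 miRNAs 18% passed in the higher direction. The C + P arrays lay wholly above the C arrays for 4 of the 7 members and for 37.5% of the 128. Leaving out any of the 6 arrays compared removed both calls. Leaving out D + P replicate 1, which enters through the shared normalization and spread, gave 6 calls, counted in either direction. mmu-let-7b-5p and mmu-let-7i-5p had negative values whichever array was left out. Without normalization all 7 passed, but the median of all 128 miRNAs was then 1.15. mmu-miR-98-5p was at least 3.79-fold higher in C + P than in C (limma adjusted p = 0.0394 in the fit over 209 miRNAs, of which 8.13% passed in the higher direction), and mmu-let-7e-5p did not pass (1.47, SE 0.56, limma adjusted p = 0.0822). The call of mmu-miR-98-5p was lost without any of the same 6 arrays, and without D replicate 1 or D + P replicate 2.

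D + P against D compares diabetic hearts with and without pargyline, and equally slide 2 with slide 1. In it 6 of the 7 members fell, mmu-let-7b-5p and mmu-let-7c-5p among them. The log2 differences were -0.94 for mmu-let-7d-5p (SE 0.24), -0.91 for mmu-let-7f-5p (SE 0.29), -0.81 for mmu-let-7g-5p (SE 0.21), -0.79 for mmu-let-7a-5p (SE 0.23), -0.63 for mmu-let-7c-5p (SE 0.19) and -0.46 for mmu-let-7b-5p (SE 0.15), with limma adjusted p-values between 0.0163 and 0.0273. mmu-let-7i-5p did not pass (-0.10, SE 0.12, limma adjusted p = 0.420). Of the 128 miRNAs 27.3% passed in the lower direction. The D + P arrays lay wholly below the D arrays for 5 of the 7 members, all called but mmu-let-7f-5p, and for 30.5% of the 128. The median log2 difference was -0.79 over the 7 members and -0.09 over the 128. In limma, 0 of the 7 passed without normalization, with the authors' normalized values or with only the D and D + P arrays in the fit (5, 6 and 6 at an unadjusted p under 0.05). All 6 calls were lost without D replicate 1 or without D replicate 2, and 4 of them without D + P replicate 1. mmu-let-7e-5p fell by 1.62 on the log2 scale (SE 0.56, limma adjusted p = 0.0375 in the fit over 209 miRNAs, of which 23.4% passed in the lower direction), a call that was lost without normalization, and without C replicate 1, C + P replicate 1 or 2, D replicate 1 or 2, or D + P replicate 1 or 2. mmu-miR-98-5p did not pass (-1.11, SE 0.55, limma adjusted p = 0.110).

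In D + P against C + P, diabetes under pargyline, mmu-let-7g-5p alone of the 7 fell (-0.71, SE 0.21, limma adjusted p = 0.0461). mmu-let-7f-5p (-0.83, SE 0.29), mmu-let-7d-5p (-0.67, SE 0.24), mmu-let-7a-5p (-0.63, SE 0.23) and mmu-let-7c-5p (-0.42, SE 0.19) had unadjusted p-values under 0.05 that did not pass after adjustment. mmu-let-7b-5p (-0.23, SE 0.15) and mmu-let-7i-5p (0.02, SE 0.12) did not pass. Of the 128 miRNAs 7.81% passed in the lower direction, and D + P lay wholly below C + P for 2 of the 7 members and 21.9% of the 128. Without D + P replicate 3 the count was 5, without D replicate 3 it was 1, and without any other single array it was 0. mmu-let-7e-5p (-1.14, SE 0.56) and mmu-miR-98-5p (-1.28, SE 0.55) did not pass in the fit over 209 miRNAs, of which 4.31% passed in the lower direction; both passed without D + P replicate 3.

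**Figure D2:**
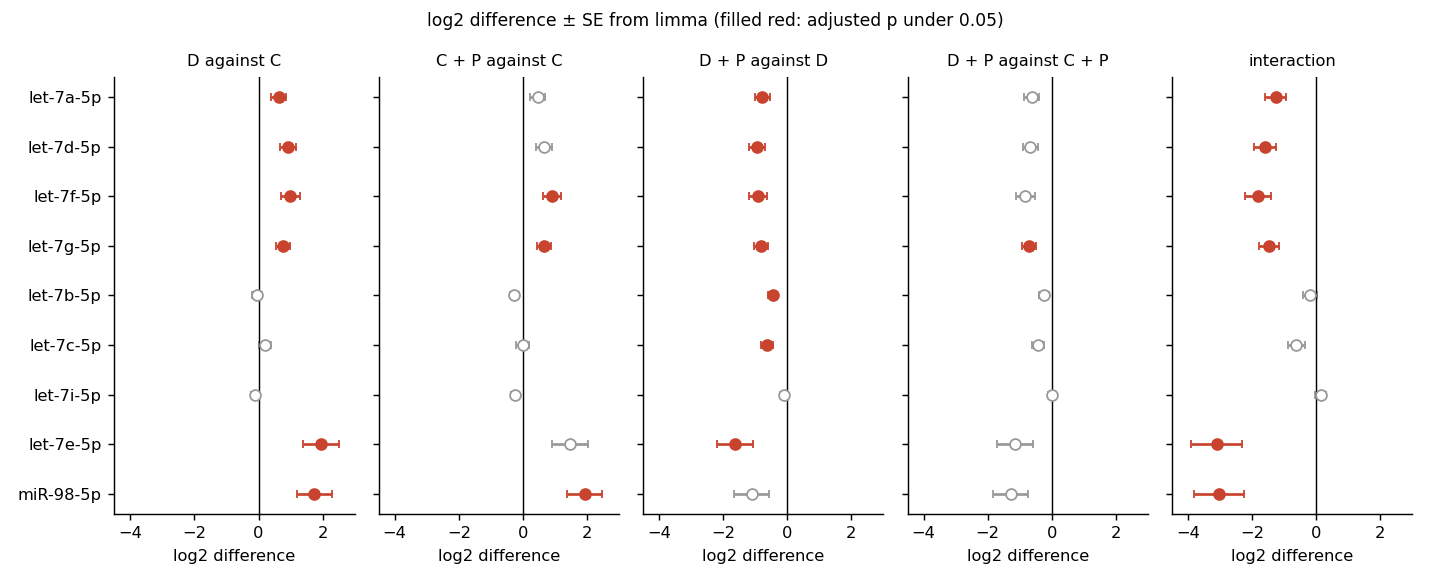
Log2 difference (x axis) with its SE from limma for each member (y axis) in the 4 comparisons and the interaction, filled red where the adjusted p was under 0.05. mmu-let-7a, d, f and g-5p lie right of 0 in D against C (0.63 to 0.99) and left of 0 in D + P against D (-0.94 to -0.79), and mmu-let-7i-5p stays between -0.25 and 0.14 throughout.

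The interaction tested whether the pargyline difference was the same in diabetic and non-diabetic hearts. It passed for mmu-let-7f-5p (-1.82, SE 0.41, limma adjusted p = 0.00353), mmu-let-7d-5p (-1.59, SE 0.35, limma adjusted p = 0.00353), mmu-let-7g-5p (-1.47, SE 0.30, limma adjusted p = 0.00344) and mmu-let-7a-5p (-1.26, SE 0.33, limma adjusted p = 0.00659). mmu-let-7c-5p (-0.61, SE 0.27, limma adjusted p = 0.0561), mmu-let-7b-5p (-0.19, SE 0.21) and mmu-let-7i-5p (0.14, SE 0.17) did not pass. Of the 128 miRNAs 35.2% passed in the lower direction. mmu-let-7e-5p (-3.10, SE 0.80) and mmu-miR-98-5p (-3.03, SE 0.78) passed in the fit over 209 miRNAs, each with a limma adjusted p of 0.00859, where 29.2% passed in the lower direction. Without the filter on detection 0 of the 7 and neither of the other members passed in limma, with 5 of the 7 at an unadjusted p under 0.05.

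The members that share the chromosome 13 cluster were set against mmu-let-7b, c and i-5p within each array. The mean normalized log2 signal of mmu-let-7a, d and f-5p minus that of mmu-let-7b, c and i-5p was -0.32, -0.34 and -0.36 on C, 0.42, 0.53 and 0.60 on C + P, 0.63, 0.63 and 0.23 on D, and -0.43, 0.08 and 0.41 on D + P. The probes differ, so the value on 1 array says nothing of which miRNA is more abundant, but its change between arrays says that the 2 sets did not move alike. The group means were -0.34 ± 0.02 for C, 0.51 ± 0.09 for C + P, 0.50 ± 0.23 for D and 0.02 ± 0.42 for D + P (SD, n = 3). C did not overlap C + P or D, and the D + P arrays ran from below C to just under the lowest C + P array. D exceeded C by 0.84 and C + P exceeded C by 0.85, while D + P was 0.48 under D, or 0.26 under D without D + P replicate 1.

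Part of this can be read without any normalization, since a scale factor of the array cancels in a ratio on 1 array. The log2 ratio of the scanner signals of mmu-let-7f-5p and mmu-let-7i-5p was 0.38, 0.27 and 0.47 on C, 1.63, 1.69 and 1.71 on C + P, 1.95, 1.77 and 1.23 on D, and -0.19, 0.80 and 1.48 on D + P. Ratios within the sets moved less than this one, which is of the 2 members farthest apart in profile. mmu-let-7f-5p minus mmu-let-7a-5p, in normalized log2 signal, was -0.40 ± 0.08 in C and -0.04 ± 0.12 in D, and mmu-let-7c-5p minus mmu-let-7b-5p was 0.26 ± 0.04 in C and 0.50 ± 0.10 in D (SD, n = 3). Not every pair across the sets moved much more. mmu-let-7a-5p minus mmu-let-7c-5p was -0.14 ± 0.06 in C and 0.29 ± 0.13 in D, a shift close to that of mmu-let-7f-5p minus mmu-let-7a-5p.

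**Figure D3:**
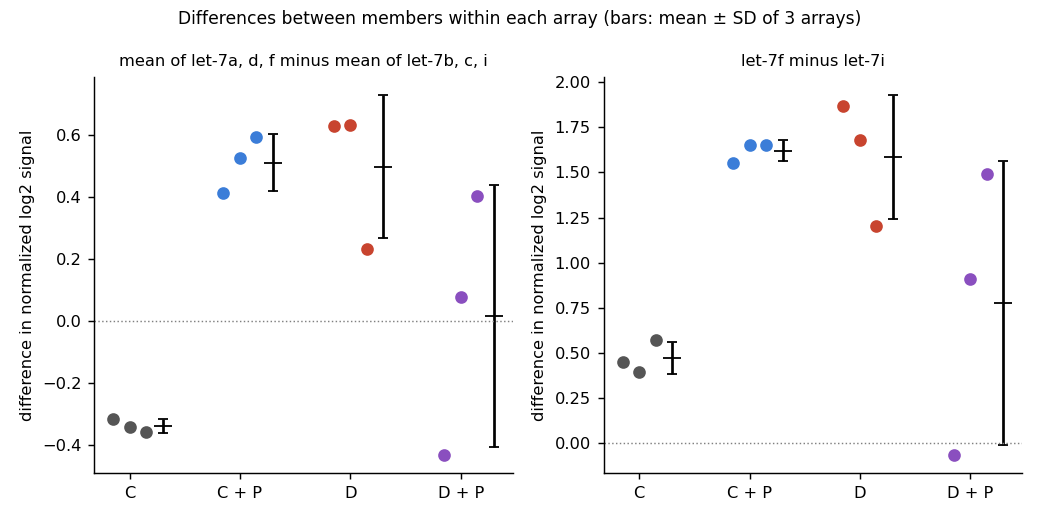
Difference in normalized log2 signal within each array (y axis) by group (x axis), for the mean of mmu-let-7a, d and f-5p minus the mean of mmu-let-7b, c and i-5p (left) and for mmu-let-7f-5p minus mmu-let-7i-5p (right), with 1 point per array and mean ± SD. The 3 C arrays lie together at -0.36 to -0.32 on the left, apart from C + P and D, and D + P spreads from -0.43 to 0.41.

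This split did not follow the hairpin clusters alone. mmu-let-7g-5p, from chromosome 9, differed from mmu-let-7d-5p by a root mean square of 0.098 over the 12 arrays (normalized log2 signals, each centred on its own mean) and from mmu-let-7a-5p by 0.098, less than mmu-let-7a-5p differed from mmu-let-7d-5p (0.133) or mmu-let-7f-5p (0.191) of its own cluster. mmu-let-7b-5p and mmu-let-7c-5p, from neighbouring hairpins, differed by 0.139. The farthest pair was mmu-let-7f-5p and mmu-let-7i-5p (0.614).

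Near-identical members can bind each other's probes, and cross-talk was not measured on these arrays. Over pairs of the 7 members, the root mean square difference was 0.139 to 0.207 for the 3 pairs that differ by 1 base and 0.098 to 0.614 for the 6 pairs that differ by 4 bases. Its median rose with the number of different bases, from 0.191 at 1 base to 0.245 at 2, 0.273 at 3 and 0.416 at 4. The 1 pair that differs by 6 bases was at 0.531. Single pairs departed from this order. mmu-let-7d-5p and mmu-let-7g-5p, with 4 different bases, were as alike in profile as any pair, while mmu-let-7a-5p and mmu-let-7c-5p, 1 base apart (A19G), differed by 0.207, and mmu-let-7a-5p passed in D against C where mmu-let-7c-5p did not. The difference between these members within an array, mmu-let-7a-5p minus mmu-let-7c-5p, was -0.14 ± 0.06 in C and 0.29 ± 0.13 in D (SD, n = 3). mmu-let-7e-5p, 1 base from mmu-let-7a-5p (U9G), was not detected on C replicate 2, an array on which mmu-let-7a-5p was detected. Its scanner signals on C replicates 1 and 3 were low (4.86 and 8.93), so this absence cannot decide on cross-talk. Where detected, mmu-let-7e-5p was lowest on D + P replicate 1 (3.17) and highest on C + P replicate 3 (40.9). mmu-let-7a-5p was lowest and highest on the same arrays (116 and 966). How much of any member's signal came from another was not tested.

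The members differ in base content. mmu-let-7f-5p and mmu-let-7g-5p hold 7 G bases, mmu-let-7a-5p, mmu-let-7d-5p and mmu-let-7i-5p hold 8, mmu-let-7c-5p holds 9 and mmu-let-7b-5p holds 10. In D against C the members with 7 G had log2 differences of 0.99 and 0.75, those with 8 had 0.93 (mmu-let-7d-5p), 0.63 (mmu-let-7a-5p) and -0.12 (mmu-let-7i-5p), the one with 9 had 0.20 and the one with 10 had -0.05. The order of the members thus did not strictly follow the number of G. G content also moved with the differences of miRNAs outside the family. Of the 128 tested, 108 had a sequence in RefSeq, and over the 101 of these that are not let-7 members, which share the arrays and the normalization, Spearman's rho of the number of G with the log2 difference was -0.60 in D against C, -0.59 in C + P against C, 0.54 in D + P against D and 0.60 in the interaction. Their median log2 difference in D against C was 0.36 for the 24 with up to 4 G, 0.21 for the 35 with 5 or 6, and -0.51 for the 42 with 7 or more. In D + P against D the medians were -0.23, -0.35 and 0.56, and the 7 members, all with 7 or more G, lay at -0.94 to -0.10. The part of base content in the members' values was not tested.

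**Figure D4:**
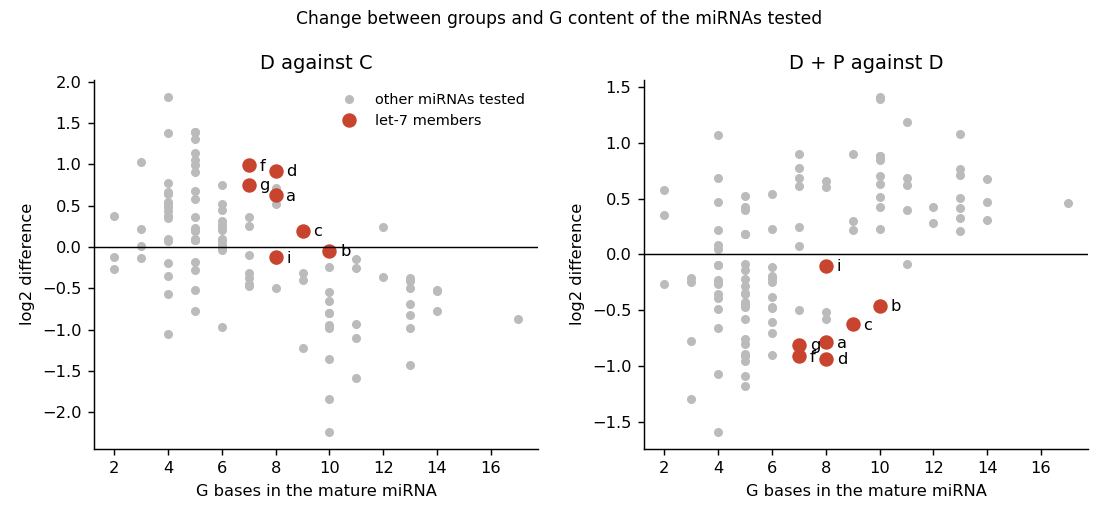
Log2 difference (y axis) in D against C (left) and D + P against D (right) by the number of G bases in the mature miRNA (x axis), for 101 other miRNAs (grey) and the 7 members (red, lettered). The members run from 0.99 at 7 G to -0.05 at 10 G on the left with mmu-let-7i-5p at -0.12, and on the right all 7 lie under 0.

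The control features moved with the same arrays. The 4 lowest control feature means (10.29 to 10.56) belonged to the 3 C arrays and D + P replicate 1, and these were the 4 arrays on which mmu-let-7a, d and f-5p were under mmu-let-7b, c and i-5p. With the control feature mean as a covariate in limma, 0 of the 7 members passed in any of the 4 comparisons or the interaction, and the number with an unadjusted p under 0.05 was 0 in D against C, 1 in C + P against C, 5 in D + P against D, 0 in D + P against C + P and 0 in the interaction. mmu-let-7f-5p, for example, went from 0.99 to 0.18 in D against C. The share of all miRNAs that passed in this fit is not given here, so the count of 0 cannot be read as particular to the family. In this fit the groups and the control features overlap strongly, and which of them the members' values follow was not tested.

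**Figure D5:**
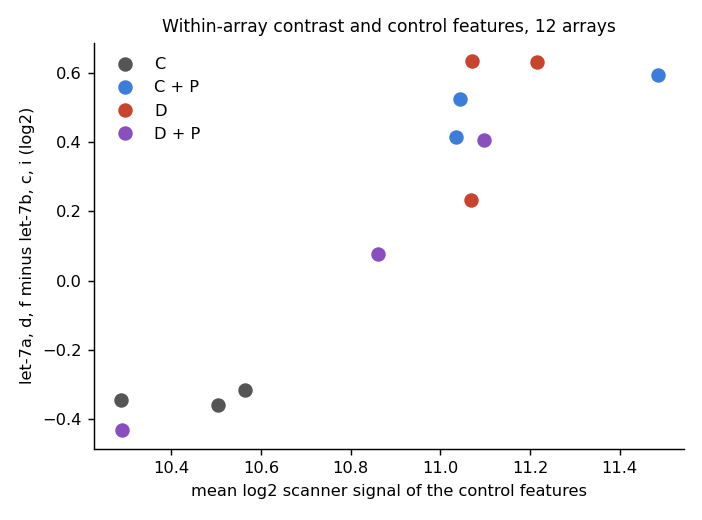
Mean of mmu-let-7a, d and f-5p minus mean of mmu-let-7b, c and i-5p in normalized log2 signal (y axis) against the mean log2 scanner signal of 10 control features (x axis), 1 point per array, coloured by group. The 3 C arrays and D + P replicate 1 lie at 10.29 to 10.56 with values under -0.3, and the other 8 arrays lie at 10.86 to 11.48 with values above 0.

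Strands, relatives and neighbours of the family were then examined. None of the 10 rows for the opposite (3p) strand of let-7 hairpins was detected on any array, nor were mmu-let-7j, mmu-let-7k and mmu-miR-202-5p. mmu-miR-202-3p, a relative of let-7, was detected on 8 arrays, at 4.01 on C replicate 1, 12.9, 14.6 and 24.04 on C + P, 9.83 and 8.62 on D replicates 1 and 2, and 9.87 and 14.8 on D + P replicates 2 and 3. It was missing from 2 C arrays, D replicate 3 and D + P replicate 1. Neighbours were a list of 5 miRNAs whose hairpins lie beside a let-7 hairpin, without that of Mir135a-1, within 50 kb of Mirlet7g. Of these 5, 4 were detected on all arrays.

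Among these 4, mmu-miR-125a-5p, encoded beside Mirlet7e, rose in D against C by 1.38 (SE 0.31, limma adjusted p = 0.00728) and in C + P against C by 0.93 (SE 0.31, limma adjusted p = 0.0368), and fell in D + P against D by 1.07 on the log2 scale (SE 0.31, limma adjusted p = 0.0216). Its normalized log2 signals were 2.74, 2.88 and 2.93 on C, 3.80, 3.76 and 3.78 on C + P, 4.10, 4.20 and 4.38 on D, and 2.22, 3.29 and 3.95 on D + P. mmu-miR-99a-5p, encoded beside Mirlet7c-1, was level, with normalized log2 signals between 7.08 and 7.30 on all 12 arrays. mmu-miR-100-5p and mmu-miR-125b-5p did not pass in any of the 4 comparisons, and in the interaction mmu-miR-125a-5p (-2.002) and mmu-miR-125b-5p (-0.55) passed. mmu-miR-99b-5p, the other neighbour of Mirlet7e, was missing from C replicate 3.

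The miRNAs outside the family whose profiles over the 12 arrays were closest to the mean of mmu-let-7a, d and f-5p were mmu-miR-199a-3p (root mean square difference 0.113), mmu-miR-322-5p (0.135) and mmu-miR-107-3p (0.146), against a median of 0.558 over the 121 miRNAs compared. mmu-miR-199a-3p, which is also on the fibroblast marker list, had group means of -0.47 in C, 0.39 in C + P, 0.44 in D and -0.36 in D + P after centring, and the mean of mmu-let-7a, d and f-5p had -0.37, 0.30, 0.47 and -0.40. The closest to the mean of mmu-let-7b, c and i-5p were mmu-miR-133a-3p (0.113), mmu-miR-106b-5p (0.117) and mmu-miR-133b-3p (0.120), against a median of 0.407. mmu-miR-133a-3p, a heart muscle miRNA, had centred group means between -0.17 and 0.09.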

How the data were processed

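For each array the authors deposited the intensity of every miRNA from Agilent Feature Extraction, with an error and a detection flag. Undetected miRNAs carry the value 0.1, and these intensities are not normalized across arrays. A second deposited table holds the authors' normalized intensity values of 209 miRNAs and served as an alternative. The amount of RNA labelled differs between the labels and the methods.

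The log2 signals of the 128 miRNAs detected on all 12 arrays were brought together by cyclic loess (span 0.7, 3 iterations), then a group means model was fitted to all arrays (lmFit and eBayes, limma 3.58.1, R 4.3.3). P-values were adjusted by Benjamini-Hochberg across every miRNA in the fit, and 0.05 was the threshold. mmu-let-7e-5p and mmu-miR-98-5p came from the same fit over 209 miRNAs, with undetected values set to the array's lowest detected signal. All 9 members are named. Profile likeness used the 3 miRNAs nearest to each mean profile. The members and lists were chosen with earlier results of these data known. Groups of G content were set after seeing the data. The fit was tested on simulated data. No 2 arrays held identical signals, and the number of arrays limits the precision.

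Alternatives were no normalization, quantile normalization, 75th percentile scaling, each slide alone, other detection filters, 16 added before log2, the authors' values, an intensity trend, fits of only the groups compared, a replicate block, the methods' t-test, a control feature covariate and each array left out. Those of the fit over 209 miRNAs, and arrays left out of the difference between member sets within arrays, were added after seeing the data. The mRNA arrays were not analysed here.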

Additional observations from a re-analysis of the deposited data

Results flagged for a closer look

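The pargyline difference (D + P against D) minus that in non-diabetic hearts (C + P against C) passed the limma threshold in 6 members, which is what singles them out: mmu-let-7a-5p at -1.26, mmu-let-7d-5p at -1.59, mmu-let-7f-5p at -1.82 and mmu-let-7g-5p at -1.47, all log2 values from the fit over 128 miRNAs, and mmu-let-7e-5p at -3.10 and mmu-miR-98-5p at -3.03 from the fit over 209. Over all miRNAs tested, 45 of 128 passed in this direction and 45 in the other. mmu-let-7e-5p and mmu-miR-98-5p entered their fit through groups other than C, so their values are not independent of its filter. The 4 members of the first fit had values over 0 in C + P against C and under 0 in D + P against D. Control feature signals, which were lowest on the C arrays and D + P replicate 1, moved with these values, and with them as a covariate none of the 6 passed. The share of all miRNAs that passed with the covariate is not given here. Slide and pargyline cannot be told apart. Groups of 3 arrays were too small to look for single outlying arrays.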

How the results depend on the processing

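Counts of the 7 members called are given in the order of the report (D against C first, then C + P against C, then D + P against D, then D + P against C + P, and the interaction last), for which the reported limma counts were 4, 2, 6, 1 and 4. They were 2, 1, 4, 0 and 5 with quantile normalization, 4, 2, 5, 0 and 5 with 75th percentile scaling, 5, 7, 0, 0 and 7 with no normalization, 2, 0, 0, 0 and 4 with the authors' normalized values, 3, 0, 6, 0 and 4 over miRNAs detected in all mice of 1 group or more, 4, 4, 6, 3 and 5 with 16 added before log2, 4, 3, 6, 1 and 5 with an intensity trend, and 0 in each with no filter on detection or with the control feature covariate. Each slide normalized alone gave 4 for D against C and 1 when D + P was set against C + P. In the 4 comparisons of groups, fits of only the groups compared gave 4, 5, 0 and 0, and the methods' t-test gave 4, 4, 0 and 0 after Benjamini-Hochberg and 0 in each after Bonferroni adjustment. Among members at an unadjusted p under 0.05 where the count was 0, there were 4 in D against C with no filter, 3 in C + P against C with the authors' values, 5 in D + P against D with no normalization, 6 there with the authors' values or only those groups, 1 there by the methods' t-test, 0 to 6 over the settings of D + P against C + P, and 5 in the interaction with no filter. The replicate numbers name the mice and did not pair the arrays (4 of 18 same-numbered pairs had r over 0.1, range -0.374 to 0.486); the replicate block gave 4, 2, 6, 0 and 4. Without normalization the median of all 128 miRNAs itself was 0.77 in D against C, 1.15 in C + P against C, -0.41 in D + P against C + P and -1.17 in the interaction. Over arrays left out in turn the counts ranged from 1 to 4, 0 to 6, 0 to 6, 0 to 5 and 4 to 5.

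For mmu-let-7e-5p and mmu-miR-98-5p the reported counts were 2, 1, 1, 0 and 2. They were 0 in each with no filter or the covariate. With 16 added before log2 they were 1, 2, 1, 0 and 2, with no normalization 2, 2, 0, 0 and 2, with quantile normalization or 75th percentile scaling 2, 1, 0, 0 and 2, and with the replicate block 2, 0, 1, 0 and 2. Without single arrays they ranged from 0 to 2 in the 4 comparisons and stayed at 2 in the interaction.

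Signs changed as follows, mostly for mmu-let-7b, c and i-5p. With no normalization mmu-let-7b-5p was at 0.83 and mmu-let-7i-5p at 0.67 in D against C, mmu-let-7b-5p at 0.88, mmu-let-7c-5p at 1.22 and mmu-let-7i-5p at 0.84 in C + P against C, and mmu-let-7i-5p at -0.45 in D + P against C + P and at -1.12 in the interaction. Quantile normalization put mmu-let-7b-5p at 0.0011 in D against C. mmu-let-7c-5p in C + P against C was at 0.13 with 75th percentile scaling and 0.0304 with no filter. With the authors' values mmu-let-7i-5p was at -0.19 in D + P against C + P and -0.0328 in the interaction. With the covariate, mmu-let-7c-5p was at -0.23 in D against C, and in C + P against C mmu-let-7a-5p went from 0.47 to -0.18, mmu-let-7d-5p from 0.65 to -0.10 and mmu-let-7e-5p from 1.47 to -0.15, mmu-let-7i-5p at -0.0425 in D + P against C + P, and mmu-let-7b-5p at 0.19, mmu-let-7c-5p at 0.0867 and mmu-let-7i-5p at -0.0089 in the interaction. Over the arrays left out in turn, mmu-let-7b-5p ranged from -0.12 to 0.076 in D against C, mmu-let-7c-5p from -0.091 to 0.0971 in C + P against C, and mmu-let-7i-5p from -0.0482 to 0.0608 in D + P against C + P.

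The difference between mmu-let-7a, d, f-5p and mmu-let-7b, c, i-5p within arrays kept its sign with quantile normalization, the authors' values and no normalization (0.87 in D minus C); percentile scaling shifts all miRNAs of an array alike, so its values equal the last by construction. It moved by more than the spread between replicates in C + P minus C with quantile normalization (0.93). Without single arrays it ranged from 0.77 to 0.97 in D minus C, 0.81 to 0.90 in C + P minus C, -0.68 to -0.26 in D + P minus D and -0.69 to -0.27 in D + P minus C + P. The cause of these changes was not tested. With 3 arrays a group, signals near the detection limit (mmu-let-7e-5p and mmu-miR-98-5p, scanner relative errors up to 31.5%) are the least certain.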
